A study of Mus musculus with 28 samples.

Results

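Genes of the contractile apparatus and of the SRF and YAP target programmes, 10 in number, were followed across RNA-seq libraries of mouse embryonic stem cells (ESCs) that differ in Tet2: Acta2, Actc1, Tagln, Cnn1, Myl9, Tpm1, Tpm2, Ccn1, Ccn2 and Thbs1. They were taken by symbol from a table of 17342 genes, and 10 of 10 had a row. They were selected on their RNA-seq values in these same libraries, chiefly the difference between Tet2-KO and Tet2-WT, so their levels and differences are given as a description. Where calls of the model over all genes are given for them, nothing is read from those calls. The cells were V6.5 ESCs, a male line of mixed 129 and C57BL/6 background, in 3 groups that share this background. Wild-type cells (Tet2-WT) came as 3 independent ESC lines, Tet2 mutant cells (Tet2-Mut) as 2 clones and Tet2 knockout cells (Tet2-KO) as 2 clones. The sources used here describe neither the mutation nor the knockout allele. The labels name no treatment for any group. Cells were grown with serum and LIF, moved off feeder cells by pre-plating and left overnight on gelatin before RNA was taken. The series set Tet2-Mut beside Tet2-KO because it asks about functions of Tet2, a 5-methylcytosine oxidase, that do not need catalysis.

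Serum response factor (SRF) binds a DNA element called the CArG box. Its partners MRTF-A and MRTF-B are held in the cytoplasm by actin monomers and enter the nucleus when signalling from adhesion sites drives actin into filaments, while its ternary complex factor (TCF) partners answer to MAP kinase signalling. YAP and TAZ (gene Wwtr1) have no DNA-binding domain of their own and act through TEAD factors, and they too respond to cytoskeletal tension, cell shape and Hippo kinases. In smooth muscle, myofibroblasts and spreading cells both arms turn on actins, actin-binding proteins and secreted matricellular proteins, the classes to which the 10 genes belong.

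The depth was 41.9 M to 58.5 M reads assigned to genes per library. Values are normalized counts, that is, gene counts divided by a size factor of the library, and are not divided by gene length, so levels are compared between libraries and not between genes. Tet2 itself was listed at 10340, 10240 and 12070 in Tet2-WT, 9992 and 13180 in Tet2-Mut, and 4624 and 5206 in Tet2-KO, so the knockout libraries kept Tet2 transcript at a lower level and the mutant ones did not stand apart. ESC markers were high in each of the 7 libraries. Pou5f1 lay between 52320 and 72700 and Dppa5a between 37710 and 55910. The summed level of 12 such markers was 343900 to 349700 in Tet2-WT, 347400 and 352600 in Tet2-Mut, and 305500 and 354800 in Tet2-KO. In these bulk libraries more cells that express a gene and more RNA per cell cannot be told apart. Over all genes the chi-square of recovered reads between libraries of a group, divided by its degrees of freedom, was 33.44 for the Tet2-KO clones and 44.14 for the Tet2-Mut clones, and 7.14 to 13.2 for the Tet2-WT lines.

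The sequences before the start sites are shown for Actc1, Myl9 and Ccn1, since these carry the clearest copies of the elements of both pathways. RefSeq promoter windows (GRCm38.p6, the mm10 build) were held for 7 of the 10 genes: Acta2, Actc1, Cnn1, Myl9, Tpm1, Tpm2 and Ccn1. Each window covers 250 bases before the start. The motifs searched were the CArG box, the same box with 1 G or C in its 6-base core, and GGAATG on both strands (CATTCC on the other), the core of the TEAD element; no matches in these windows overlapped. Capitals mark matches, and only bases outside the annotated gene are printed; the Acta2 and Tpm1 windows lie mostly or wholly inside it, before the start of a shorter transcript, and are not shown. The last 56 bases of the Myl9 window also lie inside the annotated gene, as do 32 of the Cnn1 window and 29 of the Tpm2 window. Distances below count from the start at which each window ends. The Actc1 sequence is chr2:114052876-114053125 (minus strand), that of Myl9 chr2:156775214-156775407 (plus strand) and that of Ccn1 chr3:145649986-145650235 (minus strand).

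Actc1: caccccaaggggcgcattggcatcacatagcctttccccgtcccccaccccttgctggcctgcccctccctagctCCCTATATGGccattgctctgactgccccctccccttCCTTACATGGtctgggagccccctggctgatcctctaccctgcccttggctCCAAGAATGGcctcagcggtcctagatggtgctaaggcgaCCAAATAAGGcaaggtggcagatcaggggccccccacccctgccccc

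Myl9: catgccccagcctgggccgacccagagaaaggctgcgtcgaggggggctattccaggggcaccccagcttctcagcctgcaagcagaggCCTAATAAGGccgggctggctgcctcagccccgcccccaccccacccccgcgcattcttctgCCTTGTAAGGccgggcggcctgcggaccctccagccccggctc

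Ccn1: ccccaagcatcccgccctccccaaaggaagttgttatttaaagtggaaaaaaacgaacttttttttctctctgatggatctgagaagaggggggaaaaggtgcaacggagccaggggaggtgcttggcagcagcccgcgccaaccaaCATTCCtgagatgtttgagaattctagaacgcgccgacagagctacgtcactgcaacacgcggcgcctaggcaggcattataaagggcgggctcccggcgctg

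Actc1 held 1 exact CArG box, CCAAATAAGG, 47 to 38 bases before its start, and 3 boxes with 1 G or C in the core, CCCTATATGG, CCTTACATGG and CCAAGAATGG. Myl9 held 1 exact box, CCTAATAAGG, at 161 to 152 bases, and CCTTGTAAGG at 99 to 90 bases, counted from a start 56 bases inside the gene. Acta2 held CCCTATATGG at 84 to 75 bases and CCTTGTTTGG at 34 to 25 bases, with GGAATG further out at 146 to 141 bases. Ccn1 held CATTCC at 103 to 98 bases and Tpm1 held GGAATG at 56 to 51 bases. An exact CArG box was thus in 2 of 7 windows, against 1.47% of the 32851 windows of the table, the box with 1 G or C in 3 of 7 against 7.24%, and GGAATG in 3 of 7 against 12.6%. A match is only a run of letters; binding was not measured here, and windows without one say nothing about the factors.

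Each of the 10 genes had its highest value in Tet2-KO replicate 1, and in 10 of 10 both Tet2-KO libraries lay above the 3 Tet2-WT libraries. In 9 of 10 the order was Tet2-KO replicate 1, then Tet2-KO replicate 2, then the other 5 libraries; Ccn2 was the exception. Over all 17338 genes tested, 21.9% had both Tet2-KO libraries above Tet2-WT and 8.26% had that order, and since the genes were chosen for this contrast nothing further is read from their counts. Averaged over the 10 genes on the log2(normalized count + 1) scale used for all log2 differences below, the distance from the Tet2-WT mean was 2.47 in Tet2-KO replicate 1, 1.10 in Tet2-KO replicate 2, and 0.46 and 0.12 in the first and the second Tet2-Mut clone. The Tet2-WT libraries lay between -0.05 and 0.05.

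**Figure D1:**
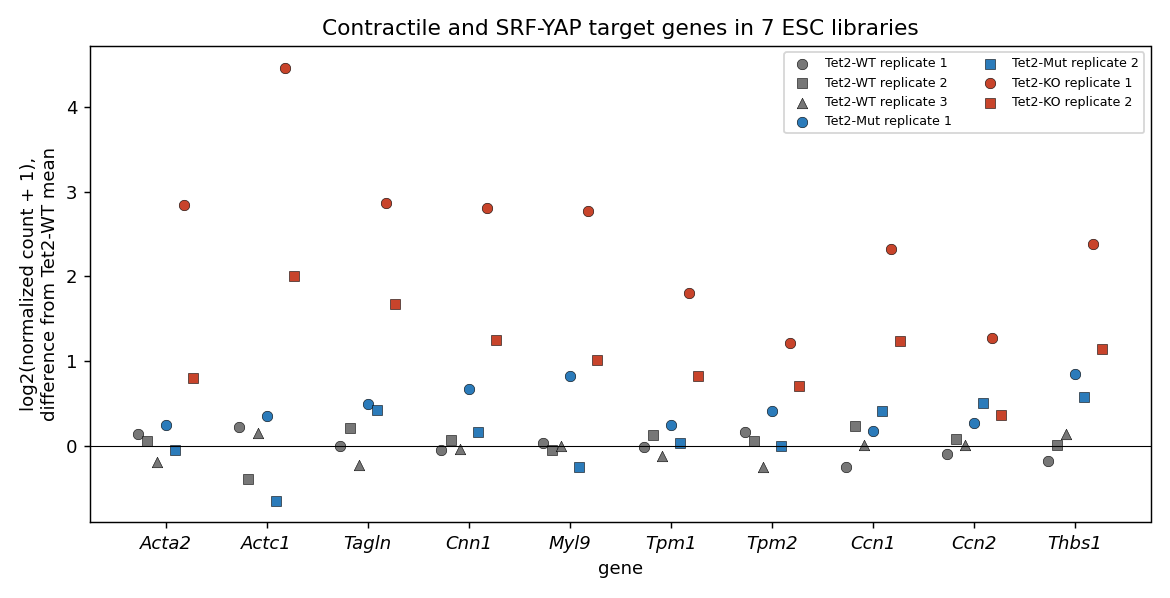
Each point is 1 library and shows the log2(normalized count + 1) of a gene minus the mean of the 3 Tet2-WT libraries (grey), with Tet2-Mut in blue and Tet2-KO in red. Tet2-KO replicate 1 (red circles) is highest for each gene, and for Ccn2 Tet2-KO replicate 2 (red square) lies below Tet2-Mut replicate 2.

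Acta2 (chr19:34240336-34255585) encodes smooth muscle alpha-actin, the thin-filament actin of smooth muscle and myofibroblasts. Its normalized counts were 525.1, 497.1 and 417.8 in Tet2-WT, 569.5 and 463.1 in Tet2-Mut, and 3429 and 831.2 in Tet2-KO. The Tet2-KO mean was 4.44-fold the Tet2-WT mean, but the clones were 7.14-fold and 1.73-fold, so most of the difference sat in replicate 1. The log2 difference between Tet2-KO and Tet2-WT was 1.82 (SE 0.46).

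Actc1 (chr2:114047282-114052875), the cardiac alpha-actin that developing muscle of other kinds also makes, was low outside the knockout. It was at 14.98, 9.414 and 14.16 in Tet2-WT and at 16.48 and 7.718 in Tet2-Mut (8 reads in the lowest library), against 299.3 and 53.76 in Tet2-KO. Both knockout clones were far above the rest, at 23.3-fold and 4.18-fold the Tet2-WT mean of 12.85 ± 3.01 (SD, n = 3), and they differed 5.57-fold from each other, the widest gap among the 10 genes. The log2 difference of 3.24 (SE 0.70) was the highest of the 10. Actins are near-identical in their coding sequence, and the sources used here do not say how reads that fit more than 1 of them were counted, so values of single actin genes are uncertain. Acta1, the skeletal alpha-actin, was at 265.5, 237.2 and 223.1 in Tet2-WT, 177.1 and 343.4 in Tet2-Mut, and 1342 and 314.3 in Tet2-KO, and it did not pass the threshold.

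Tagln (chr9:45929628-45936058) encodes transgelin, also called SM22-alpha, an actin-bundling protein that is among the earliest markers of smooth muscle. Its values were 267.1, 311.6 and 230.1 in Tet2-WT, 377.9 and 360.8 in Tet2-Mut, and 1951 and 854 in Tet2-KO. The 3 groups did not overlap, with Tet2-Mut in between. Tet2-KO averaged 5.2-fold Tet2-WT, a log2 difference of 2.27 (SE 0.30), and Tet2-Mut 1.37-fold.

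Cnn1 (chr9:22099221-22109221), calponin, binds actin and damps the myosin ATPase in smooth muscle. It was at 211.4, 227.8 and 212.4 in Tet2-WT, 347 and 245 in Tet2-Mut, and 1529 and 516.9 in Tet2-KO. The groups again did not overlap, and the knockout clones were 2.96-fold apart. The log2 difference between Tet2-KO and Tet2-WT was 2.03 (SE 0.38). Of the 10 genes Cnn1 lay closest to their mean profile over the 7 libraries, with a root mean square difference of 0.123 on the log2 scale.

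Myl9 (chr2:156775408-156781657) encodes the regulatory light chain of smooth muscle and non-muscle myosin II, whose phosphorylation switches contraction on. Its values were 436.9, 414.2 and 423.7 in Tet2-WT, 753.8 and 356 in Tet2-Mut, and 2908 and 858.1 in Tet2-KO. The Tet2-WT lines lay close together (424.9 ± 11.4, SD, n = 3), while the Tet2-Mut clones fell on either side of them. Tet2-KO exceeded the other 5 libraries, by a log2 difference of 1.89 (SE 0.46) from Tet2-WT.

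The tropomyosins Tpm1 (chr9:67022590-67049672) and Tpm2 (chr4:43513726-43523583) coil along actin filaments and set which proteins can bind them; counts here are per gene and do not separate their muscle and non-muscle isoforms. Tpm1 was at 7301, 8070 and 6753 in Tet2-WT, 8747 and 7585 in Tet2-Mut, and 25540 and 13090 in Tet2-KO. Tpm2 was at 1401, 1298 and 1053 in Tet2-WT, 1649 and 1242 in Tet2-Mut, and 2902 and 2030 in Tet2-KO. Both were already well expressed in wild-type cells (892 reads or more per library for Tpm2), and their knockout means were 2.62-fold (Tpm1) and 1.97-fold (Tpm2) those of Tet2-WT. Tpm2 had the smallest gap between the knockout clones, 1.43-fold.

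Ccn1 (chr3:145646971-145649985; older name Cyr61) and Ccn2 (chr10:24595442-24598683; Ctgf) encode secreted integrin-binding matricellular proteins, and both are standard readouts of YAP and TAZ that SRF can drive as well. Ccn1 was at 1074, 1501 and 1278 in Tet2-WT, 1439 and 1688 in Tet2-Mut, and 6357 and 3006 in Tet2-KO, a 3.65-fold difference between the Tet2-KO and Tet2-WT means. Ccn2 was at 1497, 1690 and 1611 in Tet2-WT, 1932 and 2277 in Tet2-Mut, and 3843 and 2062 in Tet2-KO. For Ccn2 the second knockout clone lay within the Tet2-Mut range, and the log2 difference of 0.82 (SE 0.22) from Tet2-WT was the smallest of the 10. These CCN relatives therefore parted in Tet2-KO replicate 2, at 2.34-fold the Tet2-WT mean for Ccn1 and 1.29-fold for Ccn2; that difference between genes was not tested.

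Thbs1 (chr2:118111876-118127133) encodes thrombospondin-1, a matricellular glycoprotein that can release active TGF-beta from its latent complex. It was at 1242, 1422 and 1552 in Tet2-WT, 2526 and 2089 in Tet2-Mut, and 7274 and 3076 in Tet2-KO. The groups formed 3 separate steps, with Tet2-Mut at 1.64-fold and Tet2-KO at 3.68-fold the Tet2-WT mean. Its Tet2-Mut difference of 0.71 (SE 0.29) on the log2 scale was the highest of the 10.

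**Figure D2:**
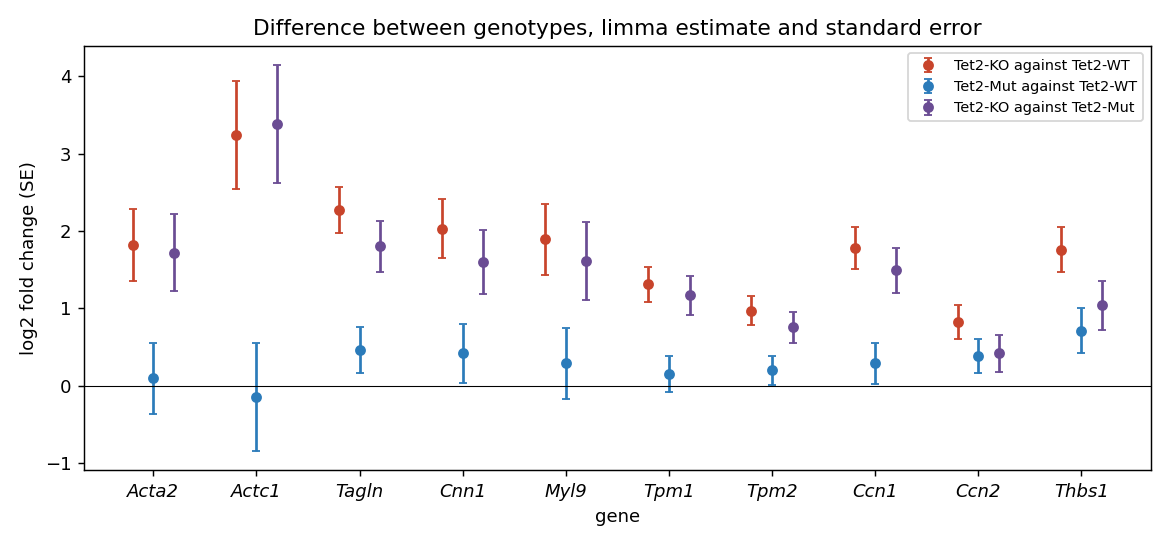
Points are log2 differences from the model over all 7 libraries, with bars of 1 standard error, for Tet2-KO against Tet2-WT (red), Tet2-Mut against Tet2-WT (blue) and Tet2-KO against Tet2-Mut (purple). Red points run from 0.82 (Ccn2) to 3.24 (Actc1) and blue points from -0.14 (Actc1) to 0.71 (Thbs1).

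In limma's moderated test over all 17338 genes, with Benjamini-Hochberg adjustment at 0.05, 8 of the 10 genes were past the threshold in Tet2-KO against Tet2-WT, beside 5.91% of all genes tested; the 8 were higher, as were 521 of all genes, and Acta2 and Ccn2 were not past it. The rule drew on this same contrast, so nothing is read from that count. The median log2 difference was 1.80 for the 10 genes and 0 for all genes. The count moved with the libraries used: it was 4 (Tagln, Tpm1, Ccn1 and Thbs1) without Tet2-KO replicate 1, and 1, 2 and 0 without Tet2-WT replicates 1, 2 and 3, with 10 of 10 at an unadjusted p under 0.05 each time, and 10 in edgeR and in DESeq2 on the recovered reads of all libraries. Without Tet2-KO replicate 1 the log2 differences shrank to between 0.37 (Ccn2) and 2.01 (Actc1), with 0.80 for Acta2, 1.01 for Myl9, 1.25 for Cnn1, 0.83 for Tpm1, 0.71 for Tpm2, 1.14 for Thbs1, 1.24 for Ccn1 and 1.67 for Tagln.

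In Tet2-Mut against Tet2-WT, 0 of the 10 genes were past the threshold, beside 3.43% of all genes; 1 had an unadjusted p under 0.05 in limma, and edgeR and DESeq2 also called 0. On average 9 of the 10 were higher (Actc1 was not), with a median of 0.29 against 0.01 for all genes. Both Tet2-Mut clones exceeded the 3 Tet2-WT libraries for Tagln, Cnn1, Ccn2 and Thbs1, 4 of 10, where 20.9% of all genes did so. Thbs1 was called when either Tet2-KO replicate 1 or Tet2-KO replicate 2 was left out of the shared model.

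Tet2-KO against Tet2-Mut uses the same Tet2-KO libraries, on whose values the 10 genes were selected, so nothing is read from the counts here either. Past the threshold were 4 of the 10 genes (Tagln, Actc1, Tpm1 and Ccn1, each higher), beside 6.19% of all genes, 458 of which were higher. The median log2 difference was 1.55 against 0 for all genes, with the lowest value at 0.42 for Ccn2 and the highest at 3.38 for Actc1. Both knockout clones exceeded both mutant clones in 9 of 10 genes, where 23.3% of all genes did. The count was 2, 2 and 1 without Tet2-WT replicates 1, 2 and 3, 7 and 2 without Tet2-Mut replicates 1 and 2, and 3 and 10 without Tet2-KO replicates 1 and 2. With only these 2 groups in limma's model it was 0 (9 at an unadjusted p under 0.05).

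The knockout clones were not interchangeable. The ratio of replicate 1 to replicate 2 ran from 1.43 (Tpm2) to 5.57 (Actc1), with 4.12 for Acta2, 3.39 for Myl9, 2.96 for Cnn1, 2.36 for Thbs1, 2.28 for Tagln, 2.12 for Ccn1, 1.95 for Tpm1 and 1.86 for Ccn2. Within the 3 Tet2-WT lines the ratio of the highest to the lowest value ran from 1.05 to 1.59. The genes with the steepest ratios were the muscle actins and Myl9, and the tropomyosins and Ccn2 had the flattest. Among 144 other genes of the same pathways, 112 were also higher in replicate 1 than in replicate 2, compared with 8928 of 17338 genes in all.

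**Figure D3:**
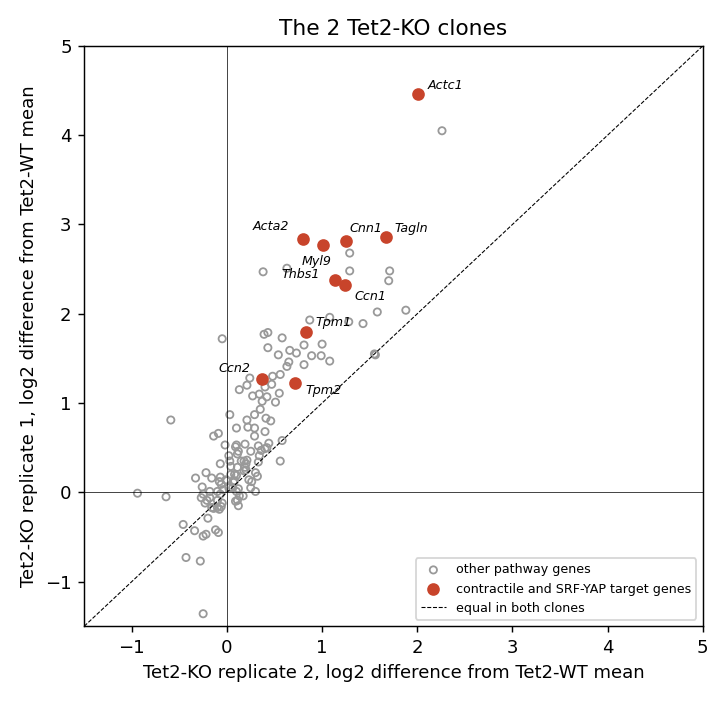
For each gene the log2(normalized count + 1) minus the Tet2-WT mean is shown in Tet2-KO replicate 2 (x axis) and in Tet2-KO replicate 1 (y axis), with the 10 genes in red, 144 other pathway genes as open circles and a dashed line where both clones are equal. The 10 genes lie above the line, with Actc1 at 2.01 and 4.46.

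The rest of the pathways was described with 6 lists, which hold 145 further genes with a row, 144 of them tested. In Tet2-KO against Tet2-WT 32 of 144 were past the threshold, each of them higher, beside 5.91% of all genes; 110 had a positive difference and the median was 0.28, against 0 for all genes. The calls rest on the full set of libraries. Without Tet2-KO replicate 1 there were 4 higher (Zyx, Nt5e, Amotl2 and Igfbp3) and 1 lower (Rhoa), without Tet2-WT replicates 1, 2 and 3 there were 3, 3 and 2, and without Tet2-Mut replicate 1 there were 51. Nt5e and Igfbp3 were called with each library left out in turn.

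**Figure D4:**
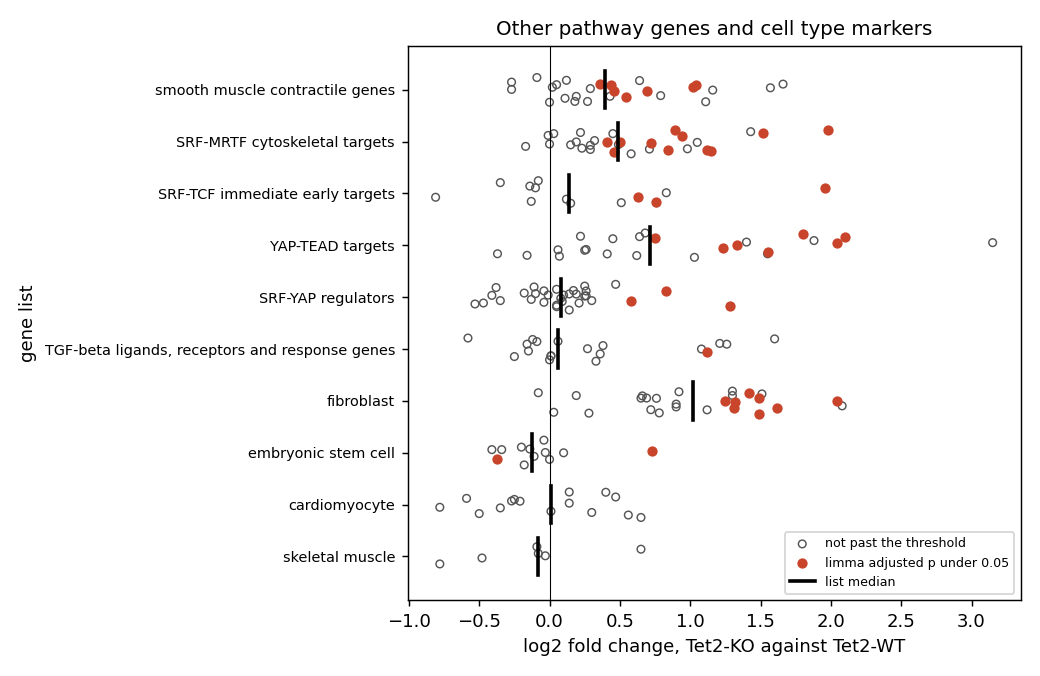
Each point is a gene, placed by the log2 difference between Tet2-KO and Tet2-WT (x axis), for the 6 pathway lists and 4 of the cell type lists (rows, with random vertical scatter). Filled red points passed limma's adjusted threshold and black bars are list medians, from -0.13 for ESC markers to 1.02 for fibroblast markers.

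Among other smooth muscle contractile genes 7 of 26 passed the threshold in Tet2-KO against Tet2-WT, each higher, beside 5.91% of all genes. A positive difference was found in 22 of 26, with a median of 0.39. The 4 with the smallest p were Cnn3 and Cnn2, relatives of calponin found outside smooth muscle, and the myosin light chains Myl6 and Myl12a. Cnn2 went from 5449, 5712 and 5241 in Tet2-WT to 14480 and 8432 in Tet2-KO, a log2 difference of 1.02 (SE 0.19; adjusted p = 0.0211 in limma). Cnn3 rose by less but with the clones close together, from 15080, 14770 and 14180 to 20730 and 19580 (0.46, SE 0.07; adjusted p = 0.00979 in limma). Myl6 rose by 0.44 and Myl12a by 0.54 on the log2 scale. Of other relatives in the list, Tpm4 passed (0.69), and Tagln2 (-0.09), Myl12b (0.05) and Tpm3 (0.19) did not. The changes among these broadly expressed relatives were smaller than those of Tagln, Cnn1 and Myl9. Since the latter were selected on this difference, nothing is read from that contrast between genes, and it was not tested.

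Of the SRF-MRTF cytoskeletal targets 11 of 29 passed the threshold in Tet2-KO against Tet2-WT, each higher, beside 5.91% of all genes. A positive difference was found in 26 of 29, with a median of 0.49. Zyx, which encodes the focal adhesion protein zyxin, went from 1206, 1259 and 1080 in Tet2-WT through 1443 and 1804 in Tet2-Mut to 4588 and 2490 in Tet2-KO, a log2 difference of 1.52 (SE 0.22; adjusted p = 0.01 in limma). Tgfb1i1 (Hic-5, a focal adhesion adaptor) rose by 1.98 (SE 0.39), with 595.6 and 227.5 in Tet2-KO against 78.23 to 105.4 in Tet2-WT. Anxa1 (annexin A1) rose by 1.12 and Cfl1, the actin-severing factor cofilin, by 0.41. Actb, the cytoplasmic beta-actin, was at 97600 to 112900 in Tet2-WT and at 190000 and 126700 in Tet2-KO, a difference of 0.58 that did not pass.

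Of the YAP-TEAD targets 7 of 24 passed the threshold in Tet2-KO against Tet2-WT, each higher, beside 5.91% of all genes. A positive difference was found in 22 of 24, with a median of 0.71. Igfbp3, an IGF-binding protein, went from 1133, 1339 and 1037 in Tet2-WT to 4737 and 3490 in Tet2-KO (1.80, SE 0.15; adjusted p = 0.00348 in limma), with 1197 and 1274 in Tet2-Mut. Nt5e, the ecto-nucleotidase CD73, went from 146.5, 193.9 and 188.8 to 907.3 and 572.8 (2.04, SE 0.23; adjusted p = 0.00539 in limma). Amotl2, an angiomotin that binds YAP, rose by 1.33 and the receptor kinase Axl by 1.23. In Igfbp3, Nt5e and Amotl2 both Tet2-KO clones were above the other 5 libraries and Tet2-Mut stayed close to Tet2-WT.

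The TCF-linked immediate early genes showed 3 of 14 higher and 0 lower, beside 5.91% of all genes past the threshold. Their median was 0.14, and 8 of 14 had a positive difference, as did 8607 of 17338 genes in all. Fos (-0.35), Egr1 (0.15) and Ier3, the lowest (-0.81), did not pass. Klf6 rose by 0.63 and Jun by 0.76, and Egr3 went from 11.65, 16 and 11.8 in Tet2-WT to 56.77 and 50.66 in Tet2-KO (1.96, SE 0.39; adjusted p = 0.0258 in limma). Over the 19 TGF-beta ligands, receptors and response genes the median was 0.06, and 12 had a positive difference.

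Of the regulators upstream of these targets 3 of 32 passed, each higher, a share near the 5.91% of all genes, and the median was 0.09. The 3 were Rhob, an actin-regulating GTPase (0.58), Amot, an angiomotin (1.28), and Tead3, a TEAD factor (0.83). Srf was at 3315, 3611 and 3648 in Tet2-WT, 4071 and 4011 in Tet2-Mut, and 5834 and 4089 in Tet2-KO, a log2 difference of 0.47 (SE 0.13) that missed the threshold (adjusted p = 0.0671 in limma). The other core factors did not pass either, at 0.26 for Mrtfa, -0.01 for Mrtfb, 0.14 for Yap1, 0.17 for Wwtr1, -0.04 for Tead1, 0.25 for Tead2 and -0.53 for Tead4. RNA levels do not report where these proteins sit in the cell.

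In Tet2-Mut against Tet2-WT, 5 of the 144 other pathway genes passed, a share near the 3.43% of all genes. A positive difference was found in 88 of the 144 (8931 of 17338 genes in all), with a median of 0.08. The SRF-MRTF cytoskeletal targets had the highest list median, 0.22, with -0.01 to 0.11 in the other lists. Among them 21 of 29 were positive. In 16 of 29 both Tet2-Mut clones exceeded the Tet2-WT libraries, where 20.9% of all genes did so, but 0 of the 29 passed the threshold. This list was singled out by its median, so nothing is read from its counts. Of the 5 that passed, Ier2, an immediate early gene (0.66), and Ajuba, a LIM protein that binds LATS kinases (0.77), rose. Myh9, the heavy chain of non-muscle myosin IIA (-0.44), Gadd45b, a stress-induced growth arrest gene (-0.87), and Stk3, the Hippo kinase MST2 (-0.53), fell. The count was 0, 0 and 2 without Tet2-WT replicates 1, 2 and 3 (19, 20 and 26 genes at an unadjusted p under 0.05 in limma), 23 and 2 without Tet2-Mut replicates 1 and 2, and 9 without either Tet2-KO replicate; edgeR on all libraries called 5 and DESeq2 12.

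In Tet2-KO against Tet2-Mut, 21 of the 144 were higher and 1 was lower, beside 6.19% of all genes that passed. Smooth muscle contractile genes gave 5 of 26, led by Myh9 (0.73), Cnn3 (0.42), Cnn2 (1.06) and Smtn, the actin-binding smoothelin (0.43). Myh9 was at 26110 and 23880 in Tet2-Mut against 46480 and 36690 in Tet2-KO, with Tet2-WT between them at 32750 to 35260. SRF-MRTF cytoskeletal targets gave 6 of 29, led by the LIM-domain genes Csrp1 (1.31), Fhl2 (1.55), Tes (0.70) and Fhl1 (1.05). For Fhl1 the Tet2-KO values of 3260 and 3741 were near those of Tet2-WT (2766 to 3426), and the Tet2-Mut values of 2241 and 1276 were the low ones. YAP-TEAD targets gave 4 of 24, Igfbp3 (1.72), Nt5e (1.85), Amotl2 (1.27) and the CCN family member Ccn4 (1.97), and the regulators gave Amot, Rhob and Tead3, 3 of 32, near the share over all genes. Klf6 and Jun were higher and Ier2 was lower (-0.74) among 14 immediate early genes, and Smad3, a TGF-beta signal transducer (0.46), passed among 19 TGF-beta genes. With only the Tet2-KO and Tet2-Mut libraries in limma's model 0 of the 144 passed (49 at an unadjusted p under 0.05), so these calls rest on the spread estimated with Tet2-WT included. In the model of 3 groups Csrp1, Ier2, Nt5e, Amotl2, Igfbp3 and Myh9 passed with each library left out in turn; the count was 11, 9 and 11 without Tet2-WT replicates 1, 2 and 3, 42 and 12 without Tet2-Mut replicates 1 and 2, and 9 and 40 without Tet2-KO replicates 1 and 2.

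Markers of other cell types were read beside these results, because fibroblasts and smooth muscle share much of the contractile programme and the cells had been on feeder cells. Of 29 fibroblast markers listed 26 had a row, and Lum, Dcn and Fap were not analysed here. In Tet2-KO against Tet2-WT 8 of the 26 passed the threshold, each higher, beside 5.91% of all genes. A positive difference was found in 25 of the 26 (8607 of 17338 genes in all), with a median of 1.02 against 0 for all genes. None of the 26 markers was at 0 in any library. Their summed level was 17250 to 17660 in Tet2-WT, 16820 and 15590 in Tet2-Mut, and 32470 and 23460 in Tet2-KO. Col5a1, a fibrillar collagen, was at 1099, 1138 and 808.4 in Tet2-WT, 1221 and 748.6 in Tet2-Mut, and 3740 and 2552 in Tet2-KO (1.62, SE 0.24; adjusted p = 0.0104 in limma). The intermediate filament gene Vim was at 3893 to 4497 in Tet2-WT and 9086 and 5487 in Tet2-KO, and the matrix gene Sparc at 8114 to 8691 and 9833 and 9301; neither passed. The median distance of the fibroblast list from the Tet2-WT mean was 1.27 and 0.74 in the Tet2-KO clones, replicate 1 first. It was 0.73 and 0.22 in the Tet2-Mut clones. For the 10 genes the medians of these 4 libraries were 2.57, 1.07, 0.38 and 0.11. Since the 10 genes were selected on their Tet2-KO values, nothing is read from setting their medians beside those of the fibroblast list. The fibroblast calls fell to 0 without Tet2-KO replicate 1, Tet2-WT replicate 1 or Tet2-WT replicate 3 (13, 17 and 17 genes at an unadjusted p under 0.05 in limma) and to 1 without Tet2-WT replicate 2, and rose to 15 and 14 without Tet2-Mut replicates 1 and 2. The part of such cells in the levels of the 10 genes was not tested.

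Markers of striated muscle were read beside Actc1. Limma called 0 of 15 cardiomyocyte markers (2 at an unadjusted p under 0.05) and 0 of 6 skeletal muscle markers (1), and edgeR and DESeq2 called 0 in both lists. The summed cardiomyocyte level was 1789 to 1917 in Tet2-WT and 2127 and 1715 in Tet2-KO; among its genes Ttn, which encodes titin, was at 273.8, 374.7 and 463.8 in Tet2-WT and 530.5 and 300.9 in Tet2-KO, and Myh6, the alpha-myosin heavy chain, at 251.3 to 316.3 and 434.5 and 333.9. The summed skeletal muscle level was 6175 to 6558 in Tet2-WT and 6413 and 6016 in Tet2-KO, most of it from the light chain gene Mylpf. Another 6 cardiomyocyte and 8 skeletal muscle markers of the lists, among them Tnnt2, Myod1 and Myog, had no row under their symbols and were not analysed here.

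Of 11 primitive streak and mesoderm markers 5 passed the threshold in Tet2-KO against Tet2-WT, each higher, beside 5.91% of all genes. The list median was 1.8, and 10 of 11 had a positive difference. Among the 5 was the streak factor T, at 14.15, 30.13 and 9.442 in Tet2-WT and 520.2 and 332.9 in Tet2-KO (4.62, SE 0.51, adjusted p = 0.00522 in limma). Wnt3, its upstream ligand, passed as well (2.89). Eomes (0.31) did not pass, and Mesp2 (-0.59) was the lowest. Of 10 trophoblast and simple epithelium markers 4 passed, each higher, including the keratin Krt8 (1.60), beside 5.91% of all genes. The median of that list was 0.08, with 5 of 10 positive and the lowest at -0.96 (Elf5, a trophoblast factor), and Epcam was at 10810 to 11940 in the 7 libraries. Without Tet2-KO replicate 1 these counts were 1 (T) and 2 (Krt8 and Krt18), and without Tet2-WT replicates 1, 2 and 3 they were 2 each time (T and Wnt3) for the streak list and 0, 1 and 0 for the epithelial list (4 at an unadjusted p under 0.05 in limma each time). Of 12 ESC markers Lin28a passed as higher and Tdgf1 as lower, and 1 of the 12 was higher in Tet2-KO replicate 1 than in replicate 2. Their median difference was -0.13, and 2 of the 12 were positive. The median distance of this list from the Tet2-WT mean was -0.27 in Tet2-KO replicate 1 and -0.01 in replicate 2. Of 9 endothelial markers only Pecam1, which ESCs also express, passed in limma, and it was lower. Of 8 endoderm markers 0 passed in limma (1 at an unadjusted p under 0.05), edgeR or DESeq2. Whether these shifts bear on the contractile genes was not tested.

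Genes whose profile over the 7 libraries was nearest to the mean profile of the 10 were found among 12325 genes with a mean of at least 50. By root mean square difference of the centred log2 values the 8 nearest were Foxi3 (0.191), Lrrc32 (0.197), Phldb2 (0.208), Cachd1 (0.212), Ccdc80 (0.213), Egfr (0.218), Dusp10 (0.221) and Tnfrsf19 (0.235). The 10 genes themselves lay at 0.123 (Cnn1) to 0.85 (Actc1) from that mean. Phldb2, a cortical adaptor for microtubules, was at 333.7, 359.6 and 363.5 in Tet2-WT, 432.5 and 411 in Tet2-Mut, and 1345 and 780.6 in Tet2-KO. Foxi3, a forkhead factor, was at 223, 220.3 and 249 in Tet2-WT, 279.1 and 274.9 in Tet2-Mut, and 1003 and 571.7 in Tet2-KO. Likeness over 7 libraries is dominated by the 2 Tet2-KO values and is given as a description.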

How the data were processed

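For 7 RNA-seq libraries the authors deposited a normalized signal, labelled as DESeq2-normalized: gene counts divided by a size factor of the library. The mm10 build, STAR 2.7.3a, Trim Galore 0.6.5 and featureCounts are named, per the submitters' processing notes, without their settings; annotation and strandedness were not found in the sources used here. Values were whole multiples of 1 read (100% within 0.01 reads), so whole reads were recovered. Of 17342 genes, 17338 with at least 10 in at least 2 libraries, including the 10 genes described, were tested with limma 3.58.1 (R 4.3.3) on log2(value + 1), in 1 model of group means over 7 libraries with 4 residual degrees of freedom and a prior of 5.03. On simulated counts for Tet2-KO against Tet2-WT (17297 genes) the test found 98% of 50 genes set to 4-fold. It found 62% of 50 set to 2-fold, and 8.11% of its calls were false. Changed genes were drawn from those with a mean above 50. The simulation gave each gene the same spread in every group, whereas the clones varied more than the Tet2-WT lines, so these rates may not hold here. Alternatives included edgeR 4.0.16 and DESeq2 1.42.0. The 3 bisulfite and 18 CUT&Tag samples were not analysed here.

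The 10 genes and the 6 pathway and 8 marker lists were chosen with earlier results of these data known. Besides the 10 genes, the text names Tet2, the core SRF and YAP factors, up to 4 genes per pathway list and comparison past the threshold with the smallest p, the most abundant markers and the 8 nearest profiles; other genes were chosen after their values were seen. One gene named by this rule is not reported here. P-values rest on the spread between ESC lines and clones.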

Additional observations from a re-analysis of the deposited data

How the results depend on the processing

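For each of the 10 genes 16 alternatives were run. None of their differences changed sign between Tet2-KO and Tet2-WT, where 142 of 160 values moved by less than 1 SD. The range was 0.37 to 4.46, and the 18 other values all came from fits without Tet2-KO replicate 1 or 2. Leaving out a Tet2-Mut library, modelling only the groups compared or changing the filter cannot move these differences, so those fits carry no information on them. Counts past the threshold are given below as all genes, the 10 genes and the other pathway genes.

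For Tet2-KO against Tet2-WT (1025, 8 and 32) the counts of all genes and of other pathway genes were 2153 and 49 with only these 2 groups in the model and 1971 and 54 in DESeq2. With 1 library left out in turn they ran from 85 to 2158, 0 to 10 and 2 to 51. For Tet2-Mut against Tet2-WT (594, 0 and 5) they were 901, 1 and 10 with only 2 groups, and 1551 and 12 for all genes and other pathway genes in DESeq2. With 1 library left out they ran from 6 to 2198, 0 to 1 and 0 to 23. For Tet2-KO against Tet2-Mut (1074, 4 and 22) limma with only these 2 groups gave 0, 0 and 0 (2351, 9 and 49 at an unadjusted p under 0.05), DESeq2 1815, 7 and 39, and leaving out 1 library 530 to 2679, 1 to 10 and 9 to 42. The causes were not tested. Where an arm was left with 1 library, it was assumed to vary like the others. Pseudocounts of 0.5 and 10, no filter, a filter at 50, upper quartile scaling and edgeR left each of these counts within 1.5 times.

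The replicate numbers of the labels only name the lines and clones: deviations of same-numbered libraries correlated between -0.07 and 0.09. With the replicate number as a block, limma gave 15, 0 and 1 for Tet2-KO against Tet2-WT (10 of the 10 genes at an unadjusted p under 0.05), 7, 0 and 0 for Tet2-Mut against Tet2-WT (2894, 1 and 22 unadjusted), and for the Tet2-KO clones against the Tet2-Mut clones 467, 3 and 10.

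A count of 3 reads corresponds to 2.5 to 3.54 normalized counts, so levels of Actc1 outside the knockout rest on few reads. From 72.1% to 75.2% of values of 1 to 20 reads were even, so totals may count both mates of a pair.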

Other observations

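Rhoa, the GTPase upstream of MRTF, was at 17510, 16940 and 17140 in Tet2-WT, 16510 and 17380 in Tet2-Mut and 17120 in Tet2-KO replicate 1, but at 8953 in replicate 2. Of Rhoa and the 5 tested genes on each side of it on chromosome 9, Tet2-KO replicate 2 was the lowest library for 9 of 11. Relative to the Tet2-WT mean it was at 0.665 for Bsn, 0.432 for Dag1, 0.521 for Nicn1, 0.432 for Amt, 0.521 for Rhoa, 0.589 for Gpx1, 0.506 for Usp4, 0.412 for Iho1 and 0.675 for Klhdc8b. The exceptions were Tcta, next to Rhoa, at 0.848 (88.91, with Tet2-Mut replicate 2 lower at 78.14), and 1700102P08Rik at 0.828, where Tet2-KO replicate 1 was the lowest. Over 36 genes that start between 108 and 109 Mb (mean of at least 50), the median ratio to Tet2-WT was 0.647 in Tet2-KO replicate 2 against 0.918 in replicate 1, and 22 of the 36 were below 0.75 in replicate 2. In the adjoining windows, 107 to 108 Mb and 109 to 110 Mb, the median ratios in Tet2-KO replicate 2 were 1.07 (24 genes) and 1.03 (9 genes). These genes were chosen after their values were seen, and nothing was tested on them.

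Kcnmb1, the smooth muscle subunit of a calcium-activated potassium channel, was below the filter and was also picked after its values were seen. Its values were 4.993, 0 and 0 in Tet2-WT, 4.119 and 0 in Tet2-Mut, and 76.38 and 4.136 in Tet2-KO, so the first knockout clone held its signal.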
